A study of Mus musculus with 6 samples.

Results

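The genes described here encode amino acid transporters of the solute carrier (SLC) families 1, 3, 6, 7, 16, 36, 38 and 43. The 35 members were taken by gene name from a fixed list, and all 35 names were found among the 20040 entries of the deposited table. The study sequenced mRNA from 3 KDM6B KO and 3 wild type (WT) libraries of neurons, cultured from the cortex of C57BL/6 mouse embryos at embryonic day 18. KDM6B is a histone demethylase that erases the repressive H3K27 methyl mark, and the KO samples are labelled only as KDM6B KO. The kind of allele, the sex of the embryos, the days in culture and the number of embryos per library are not stated in the labels. Both groups were grown in the same way, in Neurobasal A medium with N21-MAX and GlutaMax, a stabilised glutamine source, so the cells of both groups had amino acids supplied from the medium.

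Amino acids cross the plasma membrane on carriers of several kinds. Some use the sodium or proton gradient to concentrate their substrate, some exchange an amino acid for another, and facilitated carriers let amino acids move down their gradient. Many exchangers of family 7 work as pairs, in which a light chain that carries the substrate is held at the surface by a heavy chain of family 3 through a disulfide bond. In neurons, these carriers supply glutamine for transmitter synthesis, cystine and glutamate for glutathione, leucine for the growth kinase mTORC1, and they clear glycine and glutamate from synapses. Several of them are known targets of ATF4, the transcription factor made when amino acids run short. The list is named for the plasma membrane, but the products of Slc38a7, Slc38a9, Slc36a1 and Slc7a14 are known mainly from lysosomes, and that of Slc6a17 from synaptic vesicles. Slc6a8 carries creatine rather than a standard amino acid.

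Levels are in TPM, which correct for gene length and sum to 1000000 in each library. The targeted gene Kdm6b had 11.2, 11.1 and 12.0 TPM in KO libraries, against 30.9, 30.3 and 30.7 TPM in WT libraries. The whole counts behind the values added up to between 19827183 and 23582830 per library. WT replicate 3 held 6990 TPM of the ribosomal RNA precursor Rn45s, while the other 5 libraries held 3750 to 4821 TPM. Uty, Kdm5d, Ddx3y and Eif2s3y, 4 genes of the Y chromosome, summed to between 0.149 and 0.754 TPM in KO libraries, against 91.0 to 93.9 TPM in WT libraries. Xist, which female cells express, had 224.3 to 240.7 TPM in KO libraries and 70.8 to 77.7 TPM in WT libraries. The WT libraries thus held transcripts of both sexes, and the KO libraries almost none from the Y chromosome. Sex makeup and genotype therefore cannot be told apart in any comparison given here. Neuronal markers were abundant, with 7 of them summing to 4998 to 5034 TPM in KO and 4776 to 4828 TPM in WT. Markers of astrocytes (2445 to 2594 TPM in KO and 2229 to 2267 TPM in WT) and of the oligodendrocyte lineage (653.2 to 679.9 TPM in KO and 650.6 to 688.8 TPM in WT) were present too. The 6 microglial markers summed to only 1.63 to 3.78 TPM in KO and 1.24 to 1.87 TPM in WT. Inhibitory neuron markers summed to 446.6 to 488.1 TPM in KO and 559.9 to 569.6 TPM in WT, with 3 of 5 lower and 1 higher, and fibroblast and mural markers to 50.7 to 61.2 TPM in KO and 39.7 to 42.6 TPM in WT, with 3 of 6 higher. Their part in the transporter results was not tested. Cortices were kept apart during dissection, per the labels, but the labels do not say that the replicates came from separate cultures. In WT replicates 1, 2 and 3 the Y genes summed to 91.0, 91.2 and 93.9 TPM, and Xist had 70.8, 73.6 and 77.7 TPM. The mix of sexes was thus nearly equal across the WT libraries, and whether they came from 1 shared pool was not tested. If the replicates were not separate cultures, the p-values rest on technical spread alone.

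Most of the transporter genes were expressed at moderate to high levels in both groups. Of the 35, 6 averaged at least 100 TPM over the 6 libraries and 9 averaged under 10 TPM. The highest were Slc7a5, Slc1a4, Slc3a2, Slc6a17 and Slc1a1, and the lowest were Slc43a1, Slc7a7, Slc3a1 and Slc38a4. Summed over all 35 genes, transporter mRNA came to 1895, 1865 and 1908 TPM in KO libraries, against 1767, 1764 and 1685 TPM in WT libraries. Most of the difference in this sum is Slc7a5 (mean of 210.2 TPM in KO and 140.7 TPM in WT) and Slc3a2 (188.0 TPM in KO and 147.6 TPM in WT). Slc7a7 and Slc43a1 averaged under 0.5 TPM and were not tested, which left 33.

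**Figure D1:**
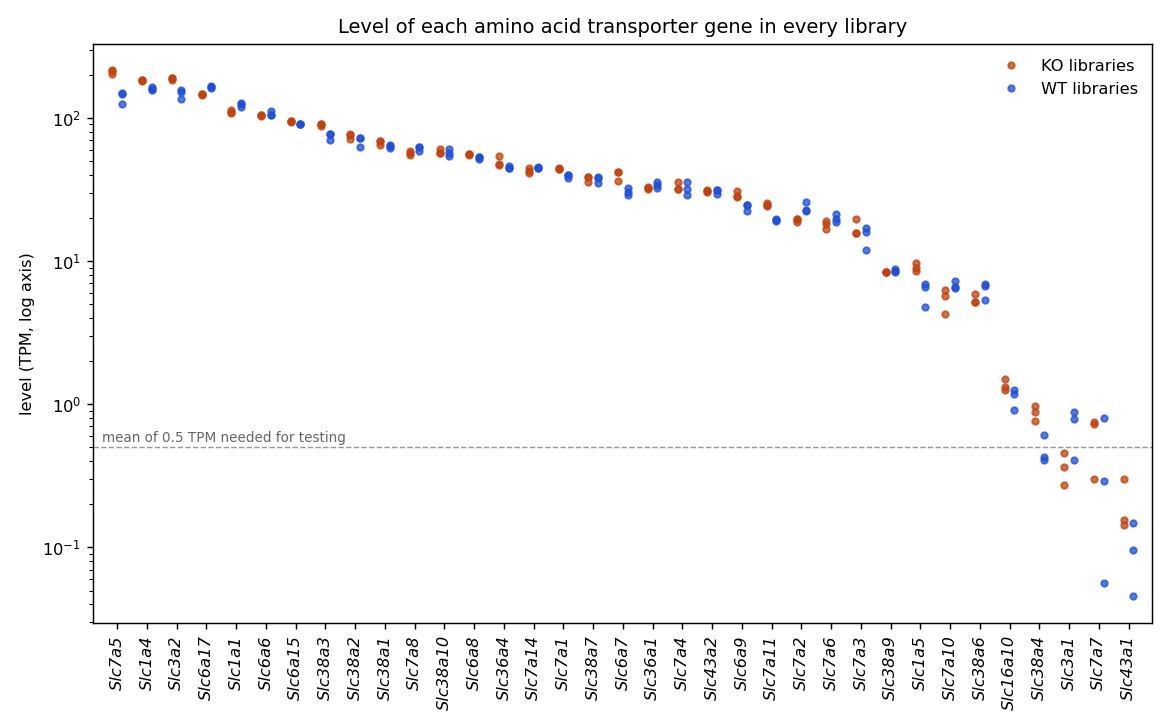
Level of each of the 35 transporter genes in TPM (log axis) in the 3 KO libraries (orange, left of each gene) and the 3 WT libraries (blue, right), ordered by mean level; the dashed line marks 0.5 TPM. Slc7a5 stands at 203.0 to 214.9 TPM in KO and 125.5 to 149.3 TPM in WT, and the groups of most other genes lie close together.

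In KO neurons 9 of the 33 tested transporter genes rose and 3 fell, and 21 did not pass. The 9 that rose were Slc7a5, Slc1a5, Slc6a7, Slc7a11, Slc3a2, Slc6a9, Slc38a3, Slc1a4 and Slc7a1, and the 3 that fell were Slc7a2, Slc6a17 and Slc1a1. Changes were modest: all 12 were smaller than 1.5-fold, and the median absolute log2 fold change was 0.28, beside 0.26 for all genes that passed. The test was limma on log2 of TPM plus 0.5 with Benjamini-Hochberg adjustment over all 14983 tested genes, and a gene passed at an adjusted p under 0.05. Over all tested genes, 10.9% passed, 4.15% higher and 6.74% lower in KO, and for the transporters the shares were 36.4%, 27.3% and 9.09%. The members were chosen with earlier results of these data known, so these shares are a description and not a test. The median log2 fold change of the 33 transporters was 0.06, and that of all tested genes was -0.02. In 20 of the 33 (60.6%) the KO and WT libraries did not overlap, against 31.7% of all tested genes. The split of all calls depended on scaling, with 622 higher and 1010 lower as deposited but 867 and 767 after median centring, while the transporters gave 9 and 3 both ways. In bulk samples, fewer cells of a type and less RNA per cell cannot be told apart, and this holds for every difference given here.

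**Figure D2:**
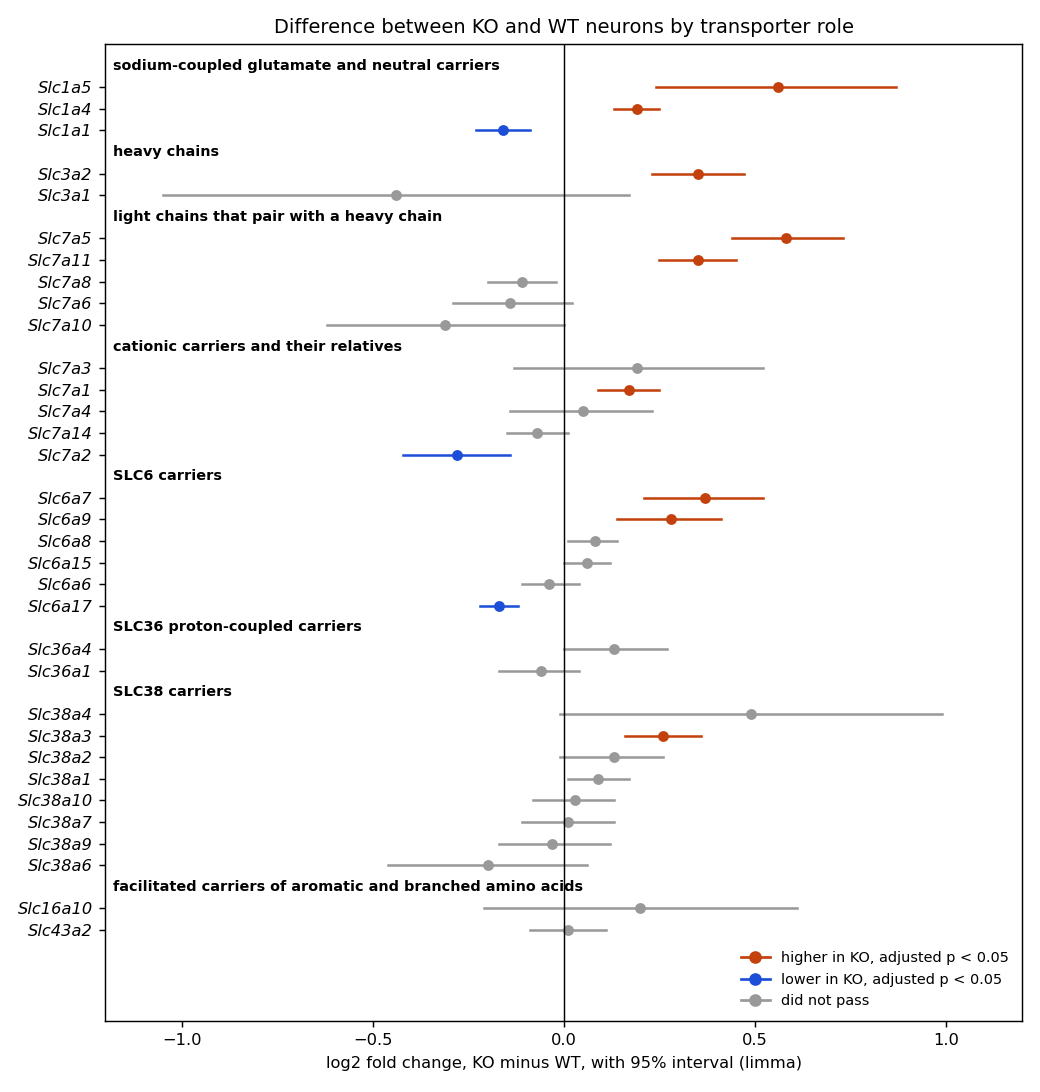
Log2 fold change (KO minus WT) with its 95% limma interval for the 33 tested transporter genes, grouped by role; orange passed as higher in KO, blue passed as lower, grey did not pass. Slc7a5 has the highest value at 0.58, and Slc7a2 the lowest among those that passed at -0.28.

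The heavy chain Slc3a2 and 2 of its light chains rose together. Slc3a2 encodes 4F2hc, the subunit that brings the light chains to the cell surface. It lies on chromosome 19 at 8706882 to 8723369 (GRCm38, which is mm10) and had 189.7, 184.4 and 189.8 TPM in KO libraries, against 150.8, 156.7 and 135.3 TPM in WT libraries. Every KO library was above every WT library, with WT replicate 3 the lowest. The ratio of group means was 1.27, and on the log2 scale the difference was 0.35 ± 0.05 (SE; limma adjusted p = 0.0048). The other heavy chain, Slc3a1 or rBAT, which serves kidney and gut cystine transport, was nearly absent, with 5 to 14 counts per library. It did not pass, and its exons share 601 bases with the opposite-strand gene Prepl, so its few reads are uncertain.

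Slc7a5 encodes LAT1, the main exchanger for leucine and other large neutral amino acids, and it showed the smallest p among the transporters. The gene lies on chromosome 8 at 121881146 to 121907686. Slc7a5 had 214.9, 203.0 and 212.9 TPM in KO libraries, against 147.2, 149.3 and 125.5 TPM in WT libraries, on 3308 to 5639 counts per library. All KO values lay well above all WT values, and the spread within WT came mostly from replicate 3. KO averaged 210.2 ± 6.36 TPM and WT 140.7 ± 13.2 TPM (SD, n = 3 each). On the log2 scale KO exceeded WT by 0.58 ± 0.06 (SE; limma adjusted p = 0.0015), or 0.50 without WT replicate 3 (limma adjusted p = 0.000901). LAT1 is also known from brain endothelium and dividing cells. The 5 endothelial markers summed to 7.45 to 8.31 TPM in KO and 10.2 to 11.9 TPM in WT. Of the 3 tested, Kdr alone passed, as lower (5.62 ± 0.576 TPM in KO and 9.21 ± 0.828 TPM in WT, SD, n = 3 each), and it makes up most of the sum. Cdh5 averaged 0.877 TPM in KO and 0.328 TPM in WT, with overlapping groups, and Cldn5, Pecam1 and Flt1 overlapped too. The 6 progenitor markers summed to 425.0 to 447.8 TPM in KO and 543.6 to 610.0 TPM in WT, most of it Vim (317.8 TPM in KO and 440.1 TPM in WT), and Vim and Nes passed as lower. The markers of division did not pass, with Mki67 at 27.7 TPM in KO and 29.2 TPM in WT and Top2a at 40.9 TPM in KO and 44.6 TPM in WT (limma adjusted p = 0.42 and 0.18), and Pax6 and Hes1 overlapped between the groups. The part of these cells in the Slc7a5 result was not tested.

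Slc7a11 encodes xCT, the light chain that imports cystine in exchange for glutamate. It had 24.3, 24.8 and 25.3 TPM in KO libraries, against 19.8, 19.3 and 18.9 TPM in WT libraries. The libraries of each group were tightly grouped and the groups did not overlap (log2 fold change 0.35 ± 0.04 SE, limma adjusted p = 0.0023). The promoter of Slc7a11 is shown because it was the only one, among the members that passed and had a window in the RefSeq promoter table, to hold the core of the C/EBP-ATF response element. That core was searched as TGATGNAA and, on the other strand, TTNCATCA, in the 250 bases before each start that the table gives. The promoter of its partner Slc3a2, which rose as well, follows for comparison. Capitals mark the matches, and both sequences are RefSeq on GRCm38.p6, 5′ to 3′ on the minus strand, from chr3:50443614-50443863 and chr19:8713898-8714147. Both windows lie inside their loci, chr3:50364936-50499087 for Slc7a11 and chr19:8706882-8723369 for Slc3a2. The bases before the outermost start of each locus were therefore not searched.
Slc7a11: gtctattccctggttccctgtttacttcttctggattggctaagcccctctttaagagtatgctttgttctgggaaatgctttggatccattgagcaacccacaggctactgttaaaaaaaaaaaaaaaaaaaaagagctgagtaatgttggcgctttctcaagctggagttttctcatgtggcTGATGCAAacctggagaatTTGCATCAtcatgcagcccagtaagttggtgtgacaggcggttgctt
Slc3a2: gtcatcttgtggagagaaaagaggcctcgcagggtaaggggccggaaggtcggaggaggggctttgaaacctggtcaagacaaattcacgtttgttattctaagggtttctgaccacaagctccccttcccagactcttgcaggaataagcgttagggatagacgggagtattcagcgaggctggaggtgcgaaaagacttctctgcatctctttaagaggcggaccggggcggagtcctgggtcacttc

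The 2 matches of Slc7a11 begin 66 and 47 bases before the start, face opposite ways and do not overlap. Of the 35 members, 24 had at least 1 window in the table. Slc7a5, Slc1a5, Slc6a7, Slc38a3 and Slc7a2, which passed, had no window and were not searched. Of the 24, 2 held the core, Slc7a11 and the barely expressed Slc7a7. Slc7a7, which had several windows, was not tested for a difference, so among the tested members Slc7a11 alone held the core. Over all tested genes with a window, 2.36% held it. A match describes the letters only, and these windows leave out all bases after the start.

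The other light chains did not pass. Slc7a8 encodes LAT2, a broader exchanger of neutral amino acids, and had 55.1, 58.4 and 56.7 TPM in KO libraries, against 62.6, 62.6 and 58.9 TPM in WT libraries. The KO values were all below the WT values by a small margin, and the log2 fold change was -0.11 (limma adjusted p = 0.10). Slc7a10 encodes asc-1, an exchanger of serine, glycine and D-serine, and had 4.29, 5.71 and 6.28 TPM in KO libraries, against 7.26, 6.61 and 6.49 TPM in WT libraries (limma adjusted p = 0.19). It rested on 60 to 101 counts per library, and its exons share 377 bases with Lrp3 on the opposite strand. Slc7a6, which encodes y+LAT2, an exchanger of arginine for glutamine, averaged 18.0 ± 1.18 TPM in KO and 19.8 ± 1.26 TPM in WT (SD, n = 3 each), and its groups overlapped. Slc7a7, encoding y+LAT1, stood at 1 to 15 counts per library.

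The makeup of the light chain mRNA differed between the groups. Slc7a5 made up 68.0%, 65.1% and 66.6% of the summed TPM of the 6 light chains in KO libraries, against 57.4%, 58.1% and 54.1% in WT libraries. The summed light chains were 1.67, 1.69 and 1.68 times the level of Slc3a2 in KO libraries, against 1.70, 1.64 and 1.71 times in WT libraries, so that ratio overlapped between the groups. These shares are given without a test.

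**Figure D3:**
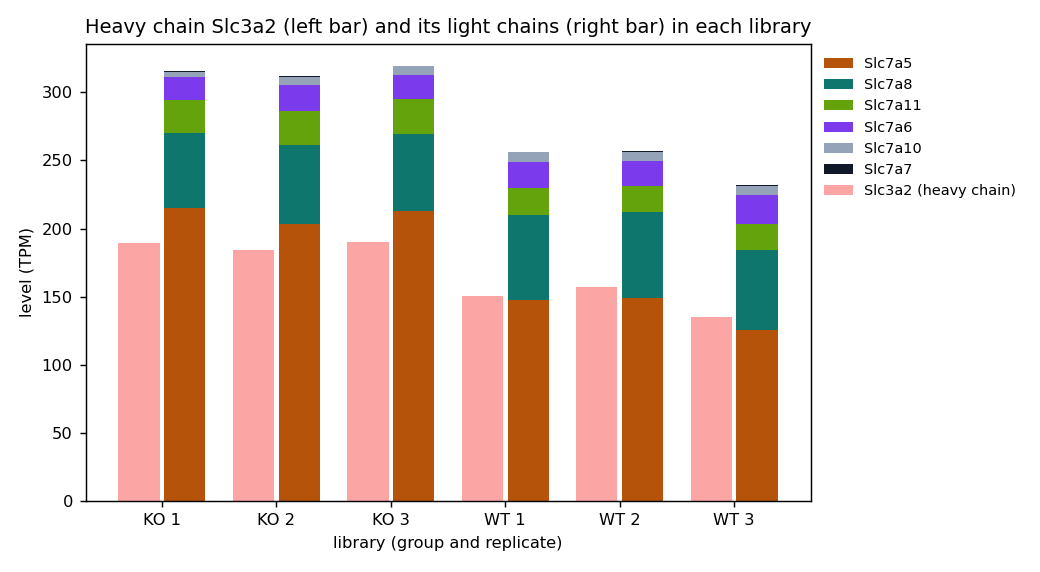
Level in TPM of the heavy chain Slc3a2 (left bar) and of its 6 light chains stacked (right bar) in each library, KO replicates first. The light chain stacks reach 311.7 to 319.6 TPM in KO and 231.8 to 256.8 TPM in WT, and Slc7a5 is the largest block in each.

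All 3 family 1 genes of the list passed, 2 higher and 1 lower, where 10.9% of all tested genes passed. Of the family 1 genes outside the list, Slc1a3 rose, as given below. Slc1a2 (limma adjusted p = 0.72) and Slc1a6 (0.3) did not pass, and Slc1a7 was not tested. Slc1a4 encodes ASCT1, which exchanges serine, alanine and related small neutral amino acids and is known as a serine carrier of astrocytes and neurons. It had 182.9, 181.9 and 184.4 TPM in KO libraries, against 158.5, 165.4 and 157.2 TPM in WT libraries. The KO libraries differed little among themselves, and all stood above WT, by 0.19 ± 0.03 on the log2 scale (SE; limma adjusted p = 0.0041). Slc1a5 encodes ASCT2, a glutamine exchanger that is low in mature neurons. Slc1a5 had 8.95, 8.53 and 9.76 TPM in KO libraries, against 6.56, 6.93 and 4.74 TPM in WT libraries, on 98 to 186 counts. Its fold of 1.49 was as large as that of Slc7a5, but its spread was wider, with WT replicate 3 well below the other WT libraries (log2 fold change 0.56 ± 0.14 SE, limma adjusted p = 0.038). The call was lost without KO replicate 1 (limma adjusted p = 0.0916), KO replicate 2 (0.0788), KO replicate 3 (0.119) or WT replicate 1 (0.074), and the log2 fold change was 0.40 without WT replicate 3.

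Slc1a1 went the other way. It encodes EAAC1, the glutamate and cysteine carrier of neuronal cell bodies and dendrites, and lies on chromosome 19 at 28835135 to 28913960. It had 113.0, 108.4 and 110.5 TPM in KO libraries, against 124.5, 120.0 and 126.6 TPM in WT libraries. KO levels were 89.4% of WT and the groups did not overlap (log2 fold change -0.16 ± 0.03 SE, limma adjusted p = 0.014). The call was lost without KO replicate 2 (limma adjusted p = 0.0579), KO replicate 3 (0.052) or WT replicate 1 (0.0602). Exons of Slc1a1 share 2631 bases with 4430402I18Rik on the opposite strand, which averaged 3.55 TPM in KO and 4.93 TPM in WT, and the labels do not state whether counting used strand.

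**Figure D4:**
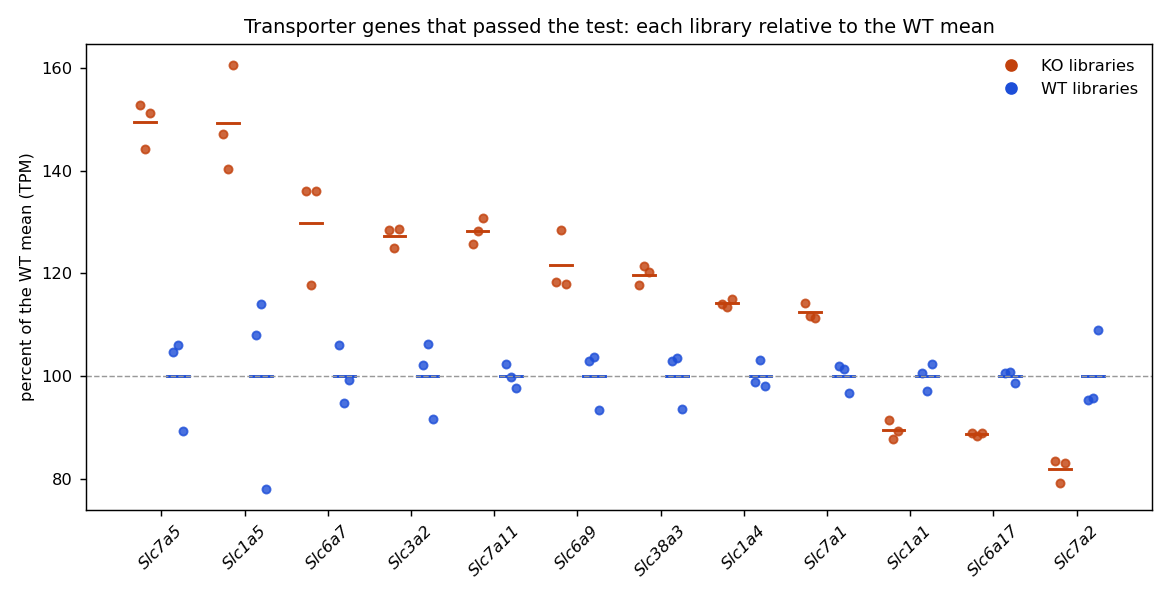
Each library's TPM as a percent of the WT mean for the 12 transporter genes that passed, KO libraries in orange to the left and WT libraries in blue to the right, with a line at each group mean. No gene shows overlap between its groups, and Slc7a5 and Slc1a5 stand highest in KO at about the same percent of WT.

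The carriers of cationic amino acids, arginine and lysine, split. Slc7a1 encodes CAT1, the widely expressed arginine carrier, and had 44.8, 43.8 and 43.7 TPM in KO libraries, against 40.0, 39.8 and 37.9 TPM in WT libraries. KO stood above WT by a small amount (log2 fold change 0.17 ± 0.04 SE, limma adjusted p = 0.023). This call held in none of the 6 fits that left out 1 library, with limma adjusted p of 0.0726, 0.067 and 0.061 without KO replicates 1, 2 and 3, and 0.0549, 0.0525 and 0.057 without WT replicates 1, 2 and 3. Slc7a2 encodes CAT2, known for arginine uptake in cells that make nitric oxide, and had 19.7, 18.7 and 19.6 TPM in KO libraries, against 22.5, 22.6 and 25.7 TPM in WT libraries. It fell to 81.9% of WT (log2 fold change -0.28 ± 0.06 SE, limma adjusted p = 0.026), and lost the call without KO replicate 1 (0.0613), KO replicate 2 (0.0876), KO replicate 3 (0.0693) or WT replicate 1 (0.0539). Exons of Slc7a2 share 635 bases with the opposite-strand gene Gm26584. The difference between the changes of Slc7a1 and Slc7a2 was not tested. Slc7a3, the X-linked gene of CAT3, averaged 17.0 ± 2.27 TPM in KO and 14.9 ± 2.68 TPM in WT (SD, n = 3 each) and did not pass. Slc7a4 and Slc7a14, family members whose substrates are less clear, had 103.0% and 95.3% of the WT level and did not pass.

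Family 6 couples uptake to sodium and chloride, and 2 of its 6 listed members rose while 1 fell. Slc6a7 encodes PROT, a proline carrier of glutamatergic nerve terminals, and had 41.8, 36.2 and 41.8 TPM in KO libraries, against 32.6, 29.1 and 30.5 TPM in WT libraries. KO replicate 2 was the lowest of the KO libraries but stayed above all of WT (log2 fold change 0.37 ± 0.07 SE, limma adjusted p = 0.012, or 0.0524 without KO replicate 3). Of the 5 excitatory markers, Slc17a7, Slc17a6 and Tbr1 passed as lower and none as higher, and they summed to 566.3 to 605.4 TPM in KO and 814.1 to 828.0 TPM in WT. Most of the difference in the sum is Slc17a7 (268.6 ± 15.6 TPM in KO and 479.8 ± 7.62 TPM in WT, SD, n = 3 each), while Neurod6 lay above WT in every KO library (188.4 TPM in KO and 175.1 TPM in WT, limma adjusted p = 0.057). The part of excitatory neurons in the Slc6a7 result was not tested. Slc6a9 encodes GlyT1, which clears glycine around glutamate synapses and is made mostly by glia. It had 28.3, 30.7 and 28.2 TPM in KO libraries, against 24.6, 24.8 and 22.3 TPM in WT libraries.

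The Slc6a9 groups did not overlap (log2 fold change 0.28 ± 0.06 SE, limma adjusted p = 0.021). The call was lost without KO replicate 2 (limma adjusted p = 0.071), WT replicate 1 (0.0549) or WT replicate 3 (0.0513). Slc6a9 exons share 1429 bases with Ccdc24 on the opposite strand, which averaged 6.29 TPM in KO and 5.29 TPM in WT. Slc6a17 encodes NTT4, a neutral amino acid carrier of synaptic vesicles, and had 146.2, 145.2 and 146.4 TPM in KO libraries, against 165.5, 165.9 and 162.3 TPM in WT libraries. Both groups were very tight, so a drop to 88.7% of WT gave a limma adjusted p of 0.0029 (log2 fold change -0.17 ± 0.02 SE).

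The remaining listed members of family 6 did not pass. Slc6a15, which encodes a branched-chain and proline carrier of neurons, had 95.5, 93.0 and 95.3 TPM in KO libraries, against 91.3, 90.2 and 90.0 TPM in WT libraries. The creatine carrier gene Slc6a8, on the X chromosome, had 55.8, 55.9 and 55.0 TPM in KO libraries, against 53.0, 53.6 and 51.6 TPM in WT libraries. For both, KO lay above WT without overlap, but neither passed (limma adjusted p = 0.16 for each). Slc6a6, which encodes the taurine carrier TauT, averaged 103.8 ± 0.826 TPM in KO and 106.4 ± 3.93 TPM in WT (SD, n = 3 each), with an interval of the log2 difference from -0.11 to 0.04.

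Of the 8 listed members of family 38, the sodium-coupled glutamine and alanine carriers, 1 rose. Slc38a3 encodes SNAT3, the glutamine carrier through which astrocytes release glutamine, and lies on chromosome 9 at 107651154 to 107668968. It had 88.2, 91.0 and 90.2 TPM in KO libraries, against 77.2, 77.6 and 70.1 TPM in WT libraries. All KO libraries were above WT (log2 fold change 0.26 ± 0.04 SE, limma adjusted p = 0.0082). Of the 9 astrocyte markers, Aldoc and Slc1a3 rose and Aldh1l1 fell, and their sum was 2445 to 2594 TPM in KO and 2229 to 2267 TPM in WT. The median log2 fold change of the 9 was -0.12, opposite in sign to the change of the sum, most of which is Aldoc and Slc1a3. Whether astrocyte content had a part in the rises of Slc38a3, Slc6a9 and Slc1a4 was not tested.

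Slc38a1, Slc38a2 and Slc38a4 lie within 1 stretch of chromosome 15, from 96571418 to 97055956. Slc38a1, the gene of the neuronal glutamine carrier SNAT1, had 68.7, 68.6 and 64.6 TPM in KO libraries, against 62.0, 64.5 and 63.1 TPM in WT libraries (limma adjusted p = 0.15). KO replicate 3 stood only just above the highest WT library. Slc38a2, which encodes SNAT2, the family member best known for induction when amino acids are scarce, had 76.3, 71.6 and 77.2 TPM in KO libraries, against 71.8, 62.8 and 71.8 TPM in WT libraries. Its groups overlapped and it did not pass, with an interval of the log2 difference from -0.01 to 0.26 (limma adjusted p = 0.21). Slc38a4, encoding SNAT4, was low, with 75 counts over the KO libraries and 41 over the WT libraries, and did not pass (limma adjusted p = 0.20). With limma voom on the recovered counts these 3 genes passed as higher (limma adjusted p = 0.0246 for Slc38a1, 0.029 for Slc38a2 and 0.0428 for Slc38a4), where 16.8% of all genes passed.

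The lysosomal members of families 36 and 38 did not pass. Slc38a9, whose product reports arginine in the lysosome to mTORC1, had 8.39, 8.37 and 8.45 TPM in KO libraries, against 8.53, 8.83 and 8.36 TPM in WT libraries. Slc38a7, the gene of a lysosomal glutamine and asparagine exporter, averaged 37.6 ± 1.80 TPM in KO and 37.3 ± 1.92 TPM in WT (SD, n = 3 each). Their intervals of the log2 difference ran from -0.17 to 0.12 and from -0.11 to 0.13, so changes of the size seen for Slc7a5 lay outside them. Slc38a10 had 101.7% of the WT level and Slc38a6 85.6%, and neither passed. In family 36, proton-coupled carriers of small amino acids, Slc36a1 had 95.6% and Slc36a4 109.9% of WT, again without passing.

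The facilitated carriers, which let amino acids move down their gradient, did not pass either. Slc43a2, which encodes LAT4, a carrier of branched-chain amino acids and phenylalanine, averaged 30.9 ± 0.303 TPM in KO and 30.7 ± 1.26 TPM in WT (SD, n = 3 each). Slc16a10, the gene of the aromatic amino acid carrier TAT1, was low at 1.25 to 1.49 TPM in KO and 0.905 to 1.26 TPM in WT. Slc43a1, encoding LAT3, had 1 to 7 counts per library.

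WT replicate 3 stood at the edge of WT in most of these genes. It was the lowest WT library in 8 of the 9 genes that rose and the highest in 2 of the 3 that fell, and over all tested genes it was the lowest WT library in 36.9%. Without it, 7 transporter genes passed as higher and 3 as lower. The genes passing as higher numbered 6 without KO replicate 2, KO replicate 3 or WT replicate 1, and those passing as lower numbered 1 in each of these fits. Of the 12 genes, 6 passed in all 6 fits that left out 1 library: Slc7a5, Slc7a11, Slc3a2, Slc6a17, Slc1a4 and Slc38a3.

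**Figure D5:**
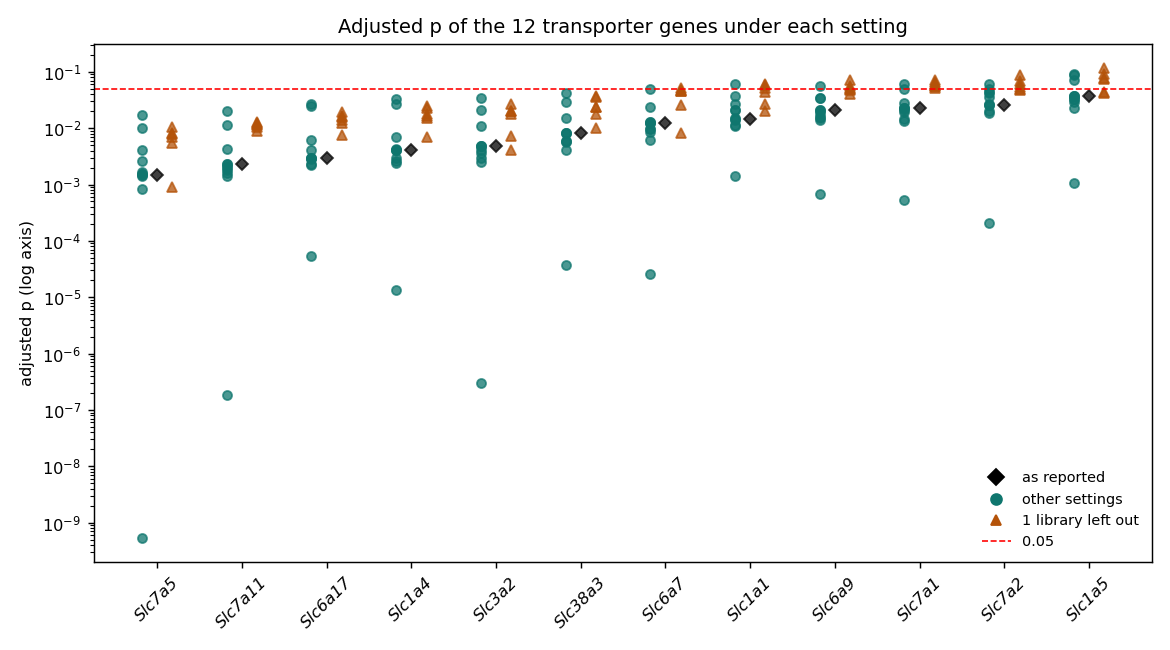
Adjusted p (log axis) of the 12 transporter genes that passed: black diamonds as reported, green circles under other settings, orange triangles with 1 library left out; the dashed red line marks 0.05. Slc7a5, Slc7a11, Slc6a17, Slc1a4, Slc3a2 and Slc38a3 stay below the line throughout, and all 6 triangles of Slc7a1 lie above it.

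Other carriers of the same families were looked at from a separate list of 24. Of these, 21 were in the table and 8 were tested, of which 2 rose and none fell, where 10.9% of all tested genes passed. Slc1a3, which encodes GLAST, the glutamate carrier of astrocytes and radial glia, had 745.5, 747.3 and 701.8 TPM in KO libraries, against 657.8, 654.6 and 648.5 TPM in WT libraries (limma adjusted p = 0.011). Slc6a11, which encodes the GABA carrier GAT3, had 192.2, 203.6 and 202.4 TPM in KO libraries, against 183.5, 174.5 and 172.1 TPM in WT libraries (limma adjusted p = 0.018). That call was lost without KO replicate 2 (limma adjusted p = 0.0661), KO replicate 3 (0.067), WT replicate 2 (0.0625) or WT replicate 3 (0.0554). Without a variance trend, Slc1a3 and Slc6a11 both lost their calls (limma adjusted p = 0.0638 and 0.0739).

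The factors that answer amino acid shortage were looked at from a list of 18 kinases and factors. Of these, 6 rose and 1 fell, with a median log2 fold change of 0.12, where 10.9% of all tested genes passed. The other 11 did not pass. Among them were Asns (1.07-fold, limma adjusted p = 0.13), Nupr1 (1.46-fold, 0.059), Cebpb (1.04-fold, 0.82), Ppp1r15a (1.06-fold, 0.43) and the kinase gene Eif2ak4 (98.4% of WT, 0.87). Atf4 itself had 244.0, 226.8 and 231.0 TPM in KO libraries, against 197.5, 202.7 and 187.8 TPM in WT libraries (limma adjusted p = 0.0054). Atf5, a related factor, Chac1, which degrades glutathione, and Ddit4, an inhibitor of mTORC1, rose 1.64-fold, 1.70-fold and 1.17-fold (limma adjusted p = 0.00046, 0.0050 and 0.012). Atf4, Atf5, Chac1 and Ddit4 kept their calls in all 6 fits that left out 1 library, and Ddit4 lost its call without a variance trend (limma adjusted p = 0.0569). The other genes of the list that passed, named here after their values were seen, were Ddit3 and Trib3, which were higher, and Impact, which was lower (limma adjusted p = 0.016, 0.015 and 0.027). Ddit3 lost its call without KO replicate 1 (0.0544), KO replicate 2 (0.0526) or WT replicate 2 (0.0565), and Trib3 without KO replicate 2 (0.0536), KO replicate 3 (0.0628) or WT replicate 1 (0.0562). Ddit3 and Trib3 also lost their calls without a variance trend (limma adjusted p = 0.0512 and 0.0533). Impact kept its call in only 1 of the 6 fits, the one without KO replicate 1, with limma adjusted p of up to 0.0804 in the others. The 35 genes of amino acid sensing upstream of mTORC1 had a median log2 fold change of -0.01. Of these, 1 rose and 2 fell, where 10.9% of all tested genes passed. Those that passed were Lamtor1, a lysosomal anchor of mTORC1 (1.11-fold, limma adjusted p = 0.039), Rragd, one of its GTPases (91.9% of WT, 0.021), and Sesn1, a stress-induced sensor (88.3% of WT, 0.048). Lamtor1 lost its call in every fit that left out 1 library (limma adjusted p up to 0.125), Rragd in 4 of the 6 (up to 0.0748) and Sesn1 in 5 of the 6 (up to 0.134).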

How the data were processed

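The authors deposited 1 value per gene and library under the name FPKM; since these values sum to 1000000 in every library, they are called TPM here, and how the authors scaled them is not given in the sources used. The submitters' processing notes list mm10, TopHat, featureCounts, Picard 1.127, FastQC 0.11.2, bcl2fastq 2.17 and edgeR among the authors' tools, with no role or setting. The 14983 genes averaging 0.5 TPM or more over the libraries were tested with limma 3.58.1 in R 4.3.3 on log2 of TPM plus 0.5, with a variance trend and Benjamini-Hochberg adjustment. A fold change on this scale understates the change of low genes. Counts were recovered as the whole numbers that the TPM values stand for given 1 whole length per gene; where counts share a common factor they are a lower bound, so library totals are at least those given. Gene positions and promoters are from RefSeq, and exon overlaps were counted with GENCODE on the same build. Scripts were tested on simulated data. Libraries were grouped by the labelled genotype. Per-library values are given for members that passed, the 5 with the highest level and those with an unadjusted p under 0.05. A few more were chosen after their values were seen. From each other list, at most the 4 genes with the smallest p that passed were named by rule. Other genes of the list of kinases and factors were named after their values were seen, as were Slc1a2, Slc1a6 and Slc1a7. The members and lists were chosen with earlier results of these data known. Alternatives changed the pseudocount, filter, scaling, variance model and libraries used.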

Additional observations from a re-analysis of the deposited data

How the results depend on the processing

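Transporter genes passing as higher numbered 9 as reported, 12 with limma voom on recovered counts, 8 without a filter and 7 without a variance trend; leaving out 1 library gave 6 to 8. Those passing as lower numbered 3 as reported, 1 without a variance trend and 1 to 3 with 1 library left out. Other pseudocounts, a filter at 2 TPM, median centring, quantile normalization, a robust trend and leaving out X and Y genes gave 9 and 3. Over all genes, 622 passed as higher and 1010 as lower, against 1133 and 1384 with voom, 406 and 658 without a variance trend, 788 and 813 with quantile normalization and 867 and 767 with median centring; leaving out 1 library gave 345 to 440 higher and 493 to 678 lower. Same-numbered libraries did not deviate together (r = 0.008, -0.051 and 0.011). That gave no sign of pairing by number, but with 3 libraries per group it cannot exclude a shared preparation. With a replicate block 7 transporters passed as higher and 3 as lower, and 360 and 585 of all genes. Slc1a5 and Slc7a1 were lost there (limma adjusted p = 0.0904 and 0.0606). From the other lists, Impact, Lamtor1, Rragd, Slc6a11 and Sesn1 were lost (limma adjusted p = 0.0905, 0.0889, 0.0704, 0.0701 and 0.0531). The log2 fold change turned sign for Slc38a10 (-0.0023 without KO replicate 1, -0.01 without WT replicate 3), Slc38a7 (-0.0089, -0.0083 and -0.03 without KO replicate 2, KO replicate 3 and WT replicate 3), Slc7a4 (-0.0066 without KO replicate 3, -0.03 without WT replicate 3), Slc43a2 (-0.03 without WT replicate 3) and Slc38a9 (0.02 with quantile normalization), none of which had passed; with other libraries left out they reached 0.06, 0.05, 0.12 and 0.03 for Slc38a10, Slc38a7, Slc7a4 and Slc43a2. The cause of these shifts was not tested. Depth limits Slc3a1, Slc7a7, Slc38a4 and Slc43a1, at 30 counts or fewer in every library.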
